A study of Mus musculus with 9 samples.

Results

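Pancreas tumours of mice labelled KPC;SnailcKO, here called Snail cKO, were compared with tumours of mice labelled KPC. The comparison used 6 of the 9 tumours in the series, 3 Snail cKO and 3 KPC, chosen by the genotype label alone. The other 3, labelled KPC;TwistcKO and here called Twist cKO, entered the fit of the spread between tumours. Their values are quoted for some genes. Each label names a separate mouse, and each tumour was hybridised to its own Illumina array, whereas the design text of the series speaks of 2 mice for each genotype; all 6 were used as labelled. All 3 genotypes share the KPC background, in the field's usual usage a mouse model of ductal pancreatic cancer that relies on Cre recombinase under the Pdx1 promoter. The labels spell out neither its alleles nor the age of the mice, and name no treatment other than spontaneous tumour growth. The series' design text places the loss of Snail in the pancreas. In such models Cre acts in the pancreatic epithelial lineage, so stromal and blood cells of a tumour piece keep an intact Snai1 gene.

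Snail, the protein of Snai1, is a zinc finger repressor of epithelial genes that promotes the epithelial-mesenchymal transition (EMT). In this programme epithelial cells lose junctions and keratins and take on fibroblast traits. Snail binds the E-box letters CAGGTG in promoters of junction genes such as Cdh1 and recruits histone-modifying enzymes there. In pancreatic cancer it is known from tumour cells and from the dense stroma of fibroblasts and macrophages around them.

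The promoters of Snai1 and of 2 junction genes known as its targets are shown here because these genes are compared between the groups below. The windows run from 250 bases before to 50 bases after the gene's start, from RefSeq on GRCm38.p6, and capitals mark each CACCTG or CAGGTG, which are reverse complements of each other. The window of Snai1 is chr2:167537945-167538244 on the plus strand, with 1 match. That of Cldn4, a claudin of tight junctions, is chr5:134946885-134947184 on the minus strand, with 2 matches. Crb3, a protein of apical polarity, has 2 windows. The one shown, chosen for the most matches, is chr17:57061951-57062250 on the plus strand, with 4 matches.
Snai1: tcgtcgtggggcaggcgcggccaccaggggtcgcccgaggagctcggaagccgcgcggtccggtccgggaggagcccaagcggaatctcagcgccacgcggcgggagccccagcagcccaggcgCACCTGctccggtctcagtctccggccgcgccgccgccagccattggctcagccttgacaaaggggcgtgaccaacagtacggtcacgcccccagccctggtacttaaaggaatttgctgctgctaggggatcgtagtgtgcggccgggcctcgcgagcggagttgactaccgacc
Cldn4: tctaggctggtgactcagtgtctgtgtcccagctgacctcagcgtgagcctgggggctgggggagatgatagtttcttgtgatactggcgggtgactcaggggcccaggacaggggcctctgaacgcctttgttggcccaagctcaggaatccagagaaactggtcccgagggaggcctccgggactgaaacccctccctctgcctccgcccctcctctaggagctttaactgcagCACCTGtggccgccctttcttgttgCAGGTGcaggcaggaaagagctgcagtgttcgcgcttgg
Crb3: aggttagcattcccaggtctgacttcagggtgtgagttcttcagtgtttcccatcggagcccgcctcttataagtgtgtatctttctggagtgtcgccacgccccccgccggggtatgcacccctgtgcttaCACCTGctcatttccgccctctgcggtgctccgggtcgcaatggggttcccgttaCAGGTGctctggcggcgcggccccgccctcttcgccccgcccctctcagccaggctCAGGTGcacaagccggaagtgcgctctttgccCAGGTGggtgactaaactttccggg

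The list of repressed genes was drawn up for its known link to Snail, and these letters were frequent in it. In the shares of genes, a gene with several windows was counted by the window with the most matches. Of the 15 genes known as repressed by Snail that were tested, 12 had a promoter window, and 11 of these (91.7%) held at least 1 match, against 21.6% of the 9277 tested genes with a window. At least 2 matches stood in 6 of the 12 (50%), against 3.27% of tested genes. Of all 32851 windows in the table, 20.2% held at least 1. Among the genes of smallest p described below, a match stood in 1 of the 15 higher genes with a window (6.67%) and in 5 of the 12 lower genes with a window (41.7%). Cdh1, Esrp1 and Ovol1 had no window to read. A match describes these letters only and does not show binding in these tumours.

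Tumours stood apart within both groups, and the values below are given as log2 normalised intensity, a scale on which 1 unit is a doubling of signal. Snail cKO replicate 2 had the fewest probes above background, 16707 of 45281, against 19152 to 19545 on the other 5 arrays. KPC replicate 1 and Snail cKO replicate 2 were the least alike pair over the genes tested (Pearson r = 0.838 across genes), and Snail cKO replicate 3 and KPC replicate 2 the most alike (r = 0.947). By median raw signal and by the rank correlation of undetected probes, Snail cKO replicates 1 and 2 fell in another set of arrays than the 3 KPC tumours and Snail cKO replicate 3. This set is read from the values and named by no label. For lists described in the text, the median with the array set blocked in the fit is given where it turned or moved by more than 1.5 times. All 3 KPC arrays fall in 1 set, so the blocked fit takes the effect of the set from Snail cKO and Twist cKO tumours only. Twist cKO replicate 2, in the set of Snail cKO replicates 1 and 2, had Krt18 at 4.72, against 12.97 and 12.99 in the other Twist cKO tumours. In the blocked values, array set and single tumours therefore cannot be told apart.

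The targeted gene did not separate the groups. Snai1 was above background in all 6 tumours, at 7.79, 6.08 and 7.30 in Snail cKO replicates 1, 2 and 3 and at 7.91, 7.46 and 6.89 in KPC replicates 1, 2 and 3. The groups overlapped, and only Snail cKO replicate 2 lay below every KPC tumour. The difference was -0.36 (SE 0.62, 95% interval -1.78 to 1.06, n = 3 each), and an exact permutation test, two-sided, gave p = 0.6, where 3 against 3 tumours can give no less than 0.1. Without Snail cKO replicate 2 it was 0.13. A further Snai1 probe was below background on every array. The files do not place the probe relative to the deleted part of the gene, and RNA of stromal cells is measured with that of tumour cells. In whole tumour pieces, fewer cells of a type and less RNA per cell cannot be told apart.

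The other factors of the EMT programme overlapped between the groups as well. Twist1, a helix-loop-helix factor of the same programme, was at 8.66, 4.65 and 7.56 in Snail cKO tumours and at 9.19, 7.46 and 7.25 in KPC tumours (means 6.96 and 7.97; exact permutation p = 0.6; a difference of 0.15 without Snail cKO replicate 2). Snail cKO replicate 2 was also lowest for Snai2, the gene of Slug, at 5.98 beside 7.87 and 7.74 in the other Snail cKO tumours and 8.57, 6.63 and 7.09 in KPC tumours. Zeb2, a zinc finger repressor of Cdh1, had 8.17, 6.50 and 8.52 in Snail cKO tumours against 8.96, 8.08 and 7.43 in KPC tumours. The same Snail cKO tumour was thus lowest for all 3. Zeb1, the paralogue of Zeb2, spanned 8.92 to 9.65 in Snail cKO tumours and 8.82 to 10.02 in KPC tumours. Foxc2, a forkhead factor of mesenchyme, was at 5.38, 4.49 and 4.62 in Snail cKO tumours and at 7.38, 6.31 and 5.32 in KPC tumours, a difference of -1.51 (SE 0.51). The highest Snail cKO value of Foxc2 lay just above the lowest KPC value. Of the 13 EMT factors tested, 3 had a higher and 10 a lower mean, with a median difference of -0.23 beside -0.04 over all genes; without Snail cKO replicate 2 the median was 0.13, and with the array set blocked 0.04.

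**Figure D1:**
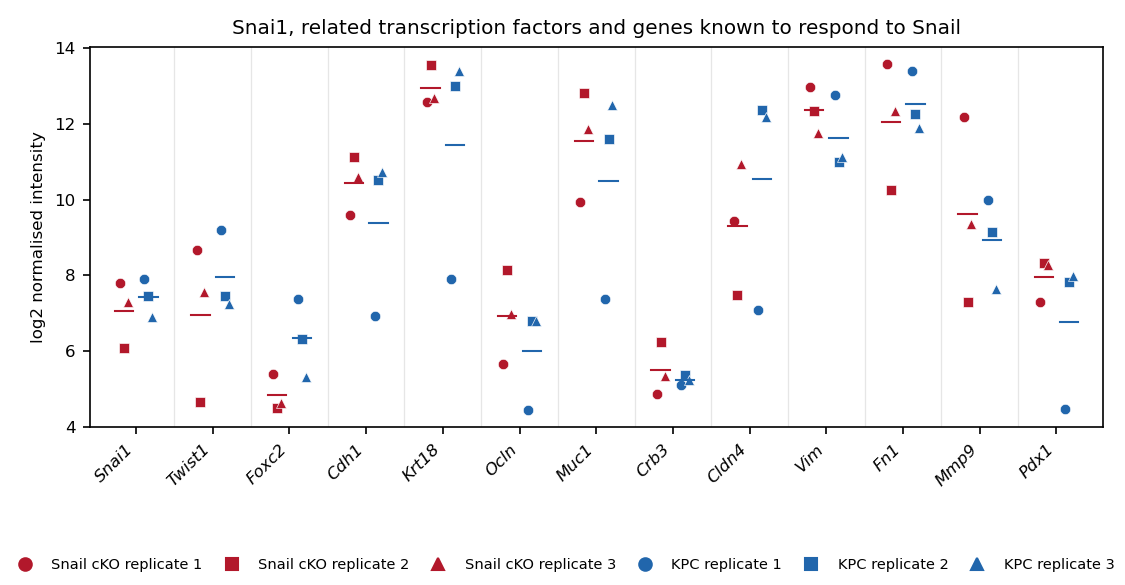
Log2 normalised intensity (y axis) of Snai1, other EMT factors, genes known to respond to Snail, and Pdx1, with 1 point per tumour, Snail cKO in red on the left and KPC in blue on the right of each gene, and lines at group means. KPC replicate 1 (blue circle) lies at 6.92 for Cdh1 and 7.90 for Krt18, far below the other 5 tumours, while Snai1 values of the groups overlap.

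Across the 11537 genes tested, 0 passed an adjusted p of 0.05 (0%; limma with Benjamini-Hochberg adjustment), and the smallest adjusted p was 0.552. Without adjustment 311 genes (2.7%) had p under 0.05, of which 116 (1.01%) were higher and 195 (1.69%) lower in Snail cKO tumours; chance alone gives 576.8. Lower means were the more frequent, in 6230 genes (54%) against 5307 (46%). For 328 genes (2.84%) the lowest Snail cKO value exceeded the highest KPC value, for 674 (5.84%) the groups stood the other way round, and together 1002 (8.69%) did not overlap. This lean to lower values depended on the scaling: the share above was 32.7% of the 1002 and 45.8% after cyclic loess normalisation, and among genes with p under 0.05 the higher share was 37.3% and 49.6%. Among genes with p under 0.05, the higher share was 61.4% when the array set was a block in the fit, while the median over all genes kept its sign (-0.03). In array set 1 Snail cKO replicate 3 alone stands against the KPC tumours, with its spread assumed to be that of the other groups; there the share was 80.8% and the median over all genes -0.06. Without Snail cKO replicate 2, 204 genes had p under 0.05. Of 616 genes in 37 lists of pathways and cell types, 566 were on the array and 478 passed the filter on dim probes, of which 15 lay above and 27 below all KPC tumours. Single genes are described below by their values, and none is a called change.

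Of the 15 genes of smallest p with higher values in Snail cKO tumours, after 1 with a predicted or clone name was left out, those known from epithelial surfaces and adhesion are given first. Tfap2a, the transcription factor AP-2 alpha of skin and other ectoderm, had 6.33, 6.62 and 6.14 in Snail cKO tumours. In KPC tumours its probe was below background on all 3 arrays, so that Snail cKO tumours were at least 2.60-fold higher (limma adjusted p = 0.552). Dmkn, dermokine of stratified epithelium, was at 8.89, 10.42 and 9.44 in Snail cKO tumours, against 5.36, 7.43 and 6.24 in KPC tumours (difference 3.24, SE 0.86, a ratio of 9.42). By these probes, the groups did not overlap for Tfap2a or Dmkn. Values within each group were close for Tfap2a but spread for Dmkn, from 5.36 to 7.43 in KPC tumours. Further probes of Dmkn gave 2.95 and 0.58, the last with overlapping groups. Krtdap, a keratinocyte differentiation peptide, was dim in both, at 5.51, 5.83 and 5.54 in Snail cKO tumours and 4.61, 4.42 and 4.99 in KPC tumours, where 1 array detected it. St3gal6, a sialyltransferase of cell surface glycans, had 10.70, 12.59 and 10.11 in Snail cKO tumours against 7.16, 9.39 and 8.49 in KPC tumours (2.78, SE 0.75; 1.45 by its further probe). Flrt3, a membrane protein of cell adhesion and axon guidance, stood at 9.50, 10.68 and 10.16 in Snail cKO tumours and at 7.15, 8.81 and 8.10 in KPC tumours (2.09, SE 0.53). For Dmkn, St3gal6 and Flrt3 the highest tumour of each group was replicate 2. Rnf186, a ubiquitin ligase known from gut epithelium, had 7.95, 7.78 and 8.71 in Snail cKO tumours against 5.09, 6.28 and 6.58 in KPC tumours (2.16, SE 0.58).

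Other genes of this group work in transport, metabolism and ribosome supply. Sys1, a Golgi membrane protein, had 8.29, 8.48 and 7.88 in Snail cKO tumours against 6.56, 6.60 and 6.56 in KPC tumours (1.64, SE 0.25, limma adjusted p = 0.552). Mfsd2a, a carrier of lysophospholipids, had 7.61, 7.97 and 8.69 in Snail cKO tumours against 6.57, 6.69 and 6.80 in KPC tumours (1.40, SE 0.31). Pbp2, a phosphatidylethanolamine-binding protein, differed most of the 15, at 8.75, 9.69 and 8.73 in Snail cKO tumours and 4.97, 6.03 and 5.36 in KPC tumours (3.60, SE 0.85, a ratio of 12.2). None of these groups overlapped. Polr1b, the second largest subunit of RNA polymerase I, had 8.30, 8.72 and 8.04 in Snail cKO tumours and 6.86, 6.07 and 4.45 in KPC tumours, the last below background (2.56, SE 0.60). Polr1a, its largest subunit, went the other way, with 10.53, 10.29 and 10.55 in Snail cKO tumours against 10.96, 10.73 and 11.20 in KPC tumours (-0.51, SE 0.27). Of 14 genes of this polymerase, 8 had a higher and 6 a lower mean (median 0.23; 0.05 with the array set blocked). Polr1b thus did not stand for the list. Camk2b, a calcium-dependent kinase known from neurons, had 6.83, 7.92 and 8.25 in Snail cKO tumours and 5.04, 6.13 and 4.73 in KPC tumours (2.37, SE 0.62). Fam162a, Qdpr and Mrps6 had differences of 1.15, 1.12 and 1.27 with groups that did not overlap. Fam162a is a mitochondrial protein raised by low oxygen, Qdpr recycles the cofactor tetrahydrobiopterin, and Mrps6 belongs to the mitochondrial ribosome. These 3 and St3gal6 shrank by more than 1.5 times when the array set was taken into account.

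**Figure D2:**
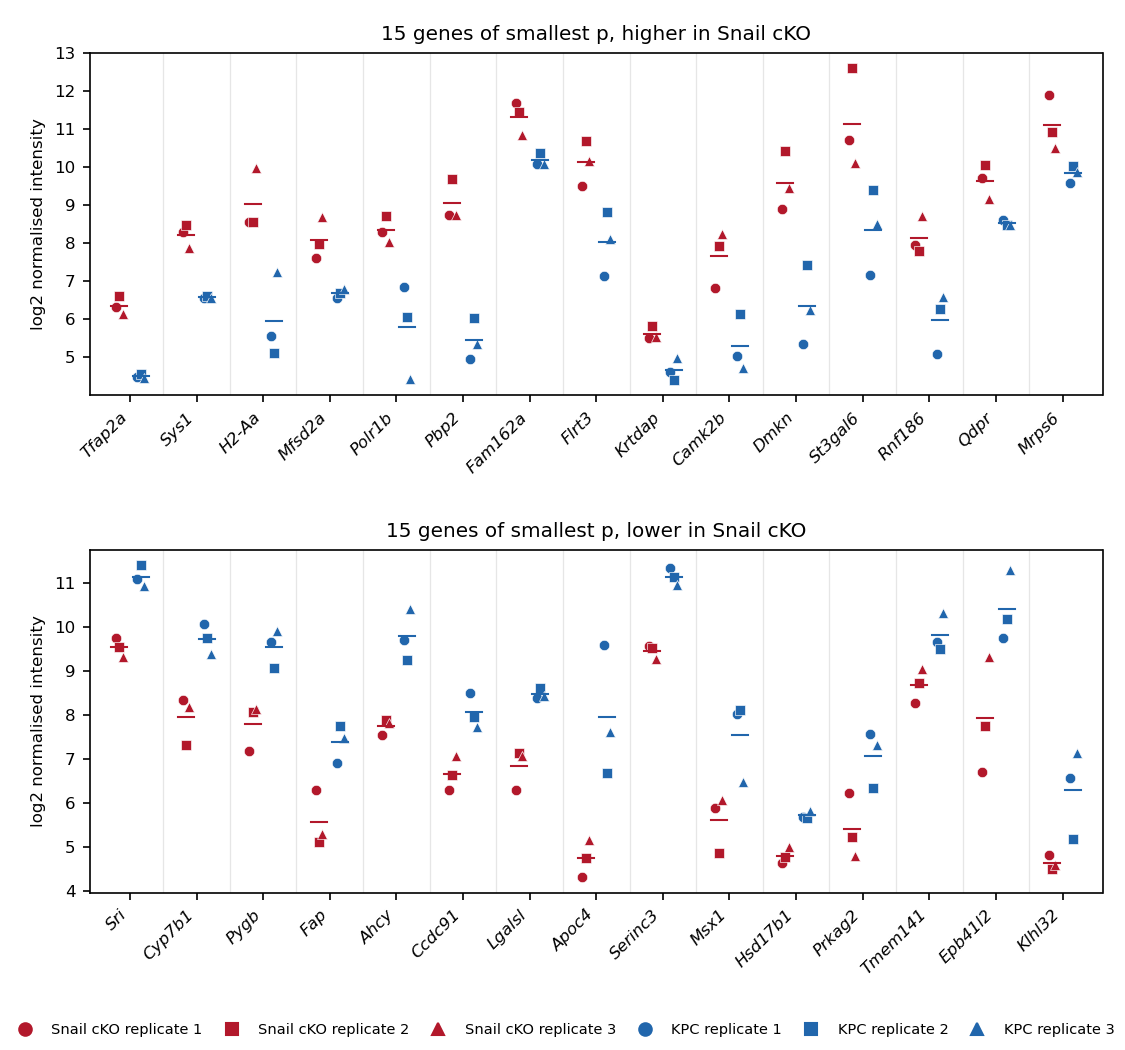
Log2 normalised intensity (y axes) of the 15 genes of smallest unadjusted p that were higher (upper panel) and lower (lower panel) in Snail cKO tumours, 1 point per tumour, Snail cKO in red left of KPC in blue, lines at group means. Groups do not overlap for any of the 30, which the choice by p favours, and Sri shows the smallest p of the lower genes with 9.33 to 9.76 in Snail cKO against 10.94 to 11.41 in KPC tumours.

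The 15 genes of smallest p with lower values in Snail cKO tumours included enzymes of sterol, glycogen and methionine metabolism. Sri, the calcium-binding protein sorcin, had 9.76, 9.54 and 9.33 in Snail cKO tumours, against 11.10, 11.41 and 10.94 in KPC tumours (-1.61, SE 0.25, limma adjusted p = 0.552). Its other 3 probes had differences of -1.29, -0.92 and -0.12, all of the same sign. Cyp7b1, the oxysterol hydroxylase of the acidic bile acid pathway, had 8.35, 7.33 and 8.19 in Snail cKO tumours and 10.06, 9.76 and 9.38 in KPC tumours (-1.78, SE 0.34). Pygb, the brain form of glycogen phosphorylase, had 7.18, 8.07 and 8.15 in Snail cKO tumours against 9.66, 9.08 and 9.91 in KPC tumours (-1.75, SE 0.34). The liver form behaved alike, though the tumour farthest out was KPC replicate 1. Pygl had 9.14, 8.63 and 9.63 in Snail cKO tumours against 11.94, 10.37 and 9.82 in KPC tumours (-1.58, SE 0.59; -0.96 without KPC replicate 1). Gyg, the primer of glycogen synthesis, averaged 0.75 lower in Snail cKO tumours with overlapping groups (6.82, 6.38 and 6.30 in Snail cKO, 8.11, 6.91 and 6.72 in KPC). Of 13 glycogen genes, 9 had a lower and 4 a higher mean, with a median of -0.28. Below all KPC tumours lay 3 of them, beside 5.84% of all genes. Pygb is 1 of these 3 and was named for its small p, so the count partly restates that choice.

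Ahcy, the hydrolase that clears S-adenosylhomocysteine after methylation reactions, was at 7.56, 7.90 and 7.82 in Snail cKO tumours and at 9.72, 9.24 and 10.41 in KPC tumours (-2.03, SE 0.45), and its further probe gave -1.27. Over the 9 methionine cycle genes tested, Ahcy among them, 5 had a higher and 4 a lower mean, and the median was 0.02 with and without the array set blocked. Serinc3, a membrane protein of lipid scrambling, stood at 9.58, 9.52 and 9.28 in Snail cKO tumours against 11.34, 11.15 and 10.97 in KPC tumours (-1.69, SE 0.41). Apoc4, an apolipoprotein, had 4.32, 4.75 and 5.17 in Snail cKO tumours, detected on 1 of the 3 arrays, against 9.61, 6.67 and 7.62 in KPC tumours (-3.22, SE 0.72). Among these 15 genes its difference was the widest, and KPC replicate 1 was the highest tumour. Msx1, a homeobox factor of mesenchyme, had 5.89, 4.86 and 6.06 in Snail cKO tumours and 8.03, 8.11 and 6.47 in KPC tumours (-1.93, SE 0.50). Epb41l2, a membrane skeleton protein, had 6.71, 7.76 and 9.33 in Snail cKO tumours against 9.75, 10.19 and 11.31 in KPC tumours (-2.48, SE 0.68), but its further probes gave -0.97 and -0.21. Its difference shrank by more than 1.5 times with the array set. Klhl32, of the kelch family, was below background in all Snail cKO tumours and at 6.57, 5.19 and 7.13 in KPC tumours, so that Snail cKO tumours were at least 2.31-fold lower. Ccdc91, Lgalsl, Hsd17b1, Prkag2, Tmem141 and Fap completed the 15, with differences of -0.92 (Hsd17b1) to -1.81 (Fap). Fap is described below with the fibroblast genes.

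The Twist cKO tumours, the other knockout of the series, were set beside some of these genes. For Sri, the Twist cKO values were 11.58, 11.28 and 11.55, near those of KPC tumours, and Snail cKO minus Twist cKO was -1.93 (SE 0.25, limma adjusted p = 0.432). Sys1 had 6.49, 6.38 and 6.81 in Twist cKO tumours and Tfap2a 4.43, 4.50 and 5.15, again near KPC tumours, and both differences from Snail cKO had a limma adjusted p of 0.518. Cyp7b1, at 8.32, 8.69 and 8.60 in Twist cKO tumours, lay nearer the Snail cKO tumours. Flrt3, St3gal6 and Qdpr of the higher genes did so too, with Snail cKO minus Twist cKO of 0.41, 0.67 and 0.37. Klhl32 and Hsd17b1 of the lower genes did likewise, with -0.27 and -0.32. Sri, Sys1 and Tfap2a thus do not stand for all 30 genes. Both comparisons share the Snail cKO tumours and are therefore not independent. Of the 30 genes, 8 (26.7%) lie on chromosome 2, which carries Snai1, against 7.92% of tested genes: Sys1, Polr1b, Flrt3, Pygb, Fap, Ahcy, Serinc3 and Tmem141. Of the 311 genes with a limma unadjusted p under 0.05, 44 (14.1%) lie on this chromosome. Counted in tested genes from Snai1, Sys1 lies at -43 and Serinc3 at -55, and the others of the 8 lie farther off on the same side. The 50 tested genes nearest Snai1, 25 on each side, thus hold none of the 8. These 50 were 25 higher and 25 lower in the mean, with a median of -0.00. Such a balance of signs does not show that these 50 genes were alike in both groups. Of them, 3 lay above and 3 below all KPC tumours, beside 2.84% and 5.84% of all genes. A limma unadjusted p under 0.05 was found for 3 of the 50, beside 2.7% of all genes. The cause was not tested.

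Epithelial genes known as repressed by Snail had mostly higher means in Snail cKO tumours, and the median's sign rested on KPC replicate 1. Cdh1, the gene of E-cadherin, was at 9.58, 11.13 and 10.60 in Snail cKO tumours and at 6.92, 10.52 and 10.72 in KPC tumours (1.05, SE 1.44; -0.19 without KPC replicate 1). Krt18, a keratin of simple epithelium, had 12.57, 13.56 and 12.67 in Snail cKO tumours and 7.90, 13 and 13.39 in KPC tumours (1.51, SE 2.25; -0.26 without KPC replicate 1). Muc1, a membrane mucin, had 9.94, 12.80 and 11.86 in Snail cKO tumours against 7.36, 11.59 and 12.50 in KPC tumours (1.05, SE 1.97; -0.51 without it). In all 3 genes KPC replicate 1 was the lowest tumour, and the other KPC tumours lay within the range of Snail cKO tumours. Ocln, occludin of tight junctions, had 5.65, 8.13 and 6.98 in Snail cKO tumours and 4.45, 6.78 and 6.80 in KPC tumours (0.91, SE 0.88; 0.13 without KPC replicate 1). Cldn4, whose promoter holds 2 matches, went the other way, at 9.44, 7.49 and 10.94 in Snail cKO tumours and 7.09, 12.36 and 12.18 in KPC tumours (-1.25, SE 2.20). Crb3, with 4 matches, was dim throughout, at 4.87, 6.24 and 5.34 in Snail cKO tumours and 5.10, 5.36 and 5.23 in KPC tumours (0.25, SE 0.47). Both of these differences turned with the array set blocked, to 0.59 for Cldn4 and -0.10 for Crb3, and that of Crb3 was -0.12 without Snail cKO replicate 2. Fbp1, the gluconeogenic enzyme known as a Snail target in other cancers, was below background in all Snail cKO tumours and at 6.66, 5.56 and 5.08 in KPC tumours, at least 1.61-fold lower in Snail cKO tumours (limma unadjusted p = 0.0305). Of the 15 genes, 11 had a higher and 4 a lower mean, with a median of 0.34 that became -0.26 without KPC replicate 1 and 1.02 with the array set blocked.

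The wider epithelial lists showed the same tumour. Of 21 junction and keratin genes, 14 had a higher mean (median 0.52), and of 15 epithelial transcription and splicing regulators 13 (median 0.63); without KPC replicate 1 the medians were -0.42 and -0.37, and with the array set blocked 1.19 and 1.31. Krt20, a keratin of gut-type epithelium, kept its sign, with 10.22, 11.27 and 11.34 in Snail cKO tumours against 5.66, 10.36 and 9.24 in KPC tumours (2.52, SE 1.62; 1.15 without KPC replicate 1). Krt19, of ductal cells, had 10.53, 12.20 and 11.84 in Snail cKO tumours against 8.08, 10.92 and 11.04 in KPC tumours (1.51, SE 1.71). Elf3, an epithelial Ets factor, was at 8.83, 11.04 and 10.44 in Snail cKO tumours and at 5.55, 10.11 and 10.99 in KPC tumours (1.22, SE 1.78). KPC replicate 1 was lowest in each. Pdx1, the pancreatic factor whose promoter usually drives Cre in these mice, had 7.31, 8.33 and 8.26 in Snail cKO tumours and 4.48, 7.83 and 7.98 in KPC tumours. Its probe was below background in KPC replicate 1 and above it in the other 5 tumours, and Krt18 and Krt19 were above background in all 6.

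Genes known as raised by Snail had 3 higher and 9 lower means of 12 (median -0.34; 0.17 without Snail cKO replicate 2; 0.12 with the array set blocked). Vim, the intermediate filament vimentin, was at 12.96, 12.35 and 11.75 in Snail cKO tumours and at 12.77, 11 and 11.11 in KPC tumours (0.73, SE 0.73). Fn1, fibronectin, had 13.58, 10.24 and 12.34 in Snail cKO tumours and 13.40, 12.27 and 11.88 in KPC tumours (-0.46, SE 1.13; 0.44 without Snail cKO replicate 2). Mmp9, a matrix protease, ranged from 7.29 to 12.18 in Snail cKO tumours and from 7.62 to 9.99 in KPC tumours. The spread within each group exceeded the difference between the groups. Il6, a cytokine of inflamed stroma, was below background in all Snail cKO tumours and above it in 2 of 3 KPC tumours, at 6.08 and 5.46. Among the partners of Snail, the 12 corepressor genes were 6 higher and 6 lower (median -0.00; 0.07 with the array set blocked). Hdac2, a histone deacetylase, had 11.73, 11.45 and 11.05 in Snail cKO tumours and 10.77, 11.27 and 11.25 in KPC tumours. Fbxl5, a ubiquitin ligase subunit that marks Snail for degradation, had 7.74, 8.49 and 8.08 in Snail cKO tumours, just below 8.49, 8.90 and 9.69 in KPC tumours (-0.93, SE 0.46).

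Fibroblast and matrix genes had lower means in Snail cKO tumours, in 20 of 22 tested, with a median of -0.63, and 4 of the 22 lay below all KPC tumours, against 5.84% of all genes. Of these 4, Fap and Cyp7b1 also belong to the 15 lower genes of smallest p, so the count partly restates that choice. Fap, fibroblast activation protein of tumour stroma, had 6.30, 5.11 and 5.29 in Snail cKO tumours and 6.92, 7.76 and 7.47 in KPC tumours (-1.81, SE 0.39), and -1.59 without Snail cKO replicate 2. Col5a2, a fibrillar collagen chain, was at 7.23, 5.37 and 7.72 in Snail cKO tumours and at 8.08, 8.38 and 8.37 in KPC tumours (-1.50, SE 1.01; -0.80 without it). Bgn, the matrix proteoglycan biglycan, had 13.37, 11.36 and 13.78 in Snail cKO tumours against 14.38, 14.19 and 13.24 in KPC tumours (-1.10, SE 0.76; -0.36 without it). Snail cKO replicate 2 was lowest for each. Without it the list's median was -0.02, while Fap had -1.59 and Cyp7b1, a member of this list too, -1.47. The list's median turned to 0.18 with the array set blocked and was 0.16 within array set 1. Summed over the list, intensity was 21630 in Snail cKO replicate 2, 82060 and 75900 in the other Snail cKO tumours, and 50530 to 93260 in KPC tumours. The 18 mesenchymal genes had 13 lower and 5 higher means, with a median of -0.26, 0.07 without that tumour and 0.31 with the array set blocked.

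**Figure D3:**
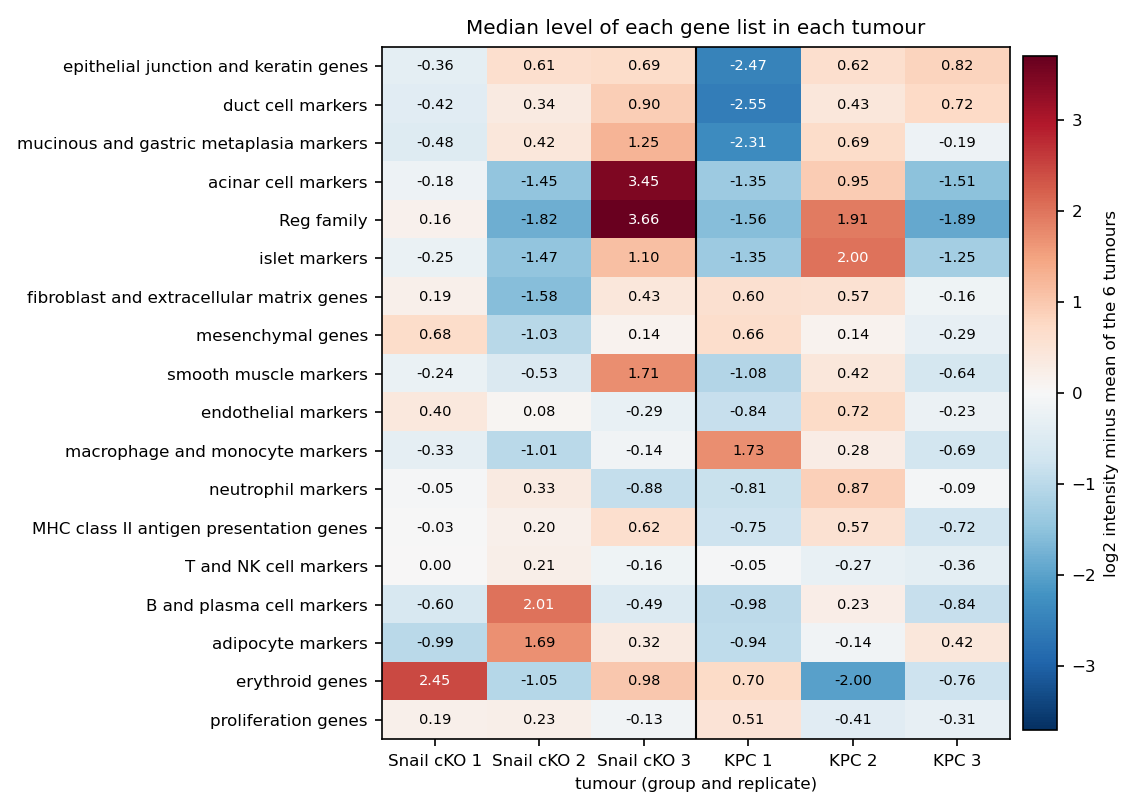
Median over each list's tested genes of log2 normalised intensity minus the gene's mean over the 6 tumours (colour and printed value), with lists down the page and tumours across, Snail cKO left of KPC. KPC replicate 1 reads -2.47 for epithelial and 1.73 for macrophage genes, Snail cKO replicate 2 reads -1.58 for fibroblast genes, and Snail cKO replicate 3 reads 3.45 for acinar and 1.71 for smooth muscle genes.

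Macrophage genes had lower means in Snail cKO tumours in 26 of 27 tested (median -0.99), with 4 below all KPC tumours, beside 5.84% of all genes, and the tumour farthest out was KPC replicate 1. Chil3, a chitinase-like protein of alternatively activated macrophages, had 8.30, 7.39 and 9.99 in Snail cKO tumours, against 12.36, 11.47 and 11.60 in KPC tumours (-3.25, SE 1.46, a ratio of 9.52). Its groups were apart, and its further probes gave -3.35 and -3.39. Cd163, a haemoglobin scavenger receptor, had 6.48, 6.30 and 7.43 in Snail cKO tumours and 11.08, 7.32 and 8.80 in KPC tumours (-2.33, SE 0.86; -1.33 without KPC replicate 1). Clec7a, the beta-glucan receptor, was at 5.70, 7.52 and 7.95 in Snail cKO tumours and at 9.29, 9.07 and 7.92 in KPC tumours (-1.70, SE 0.61). Fcgr3, a receptor for antibody, had 10.37, 8.54 and 10.59 in Snail cKO tumours, below 12.49, 11.69 and 10.77 in KPC tumours (-1.81, SE 0.68). KPC replicate 1 was highest in each of these genes. Mrc1, the mannose receptor, spanned 10.25 to 11.47 in Snail cKO tumours and 11.47 to 12.78 in KPC tumours (-0.99, SE 0.44). Without KPC replicate 1 the list's median was -0.25. The list's summed intensity was 13300 to 25030 in Snail cKO tumours, and 97420, 39210 and 22930 in KPC replicates 1, 2 and 3.

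Several chemokines of macrophages and stroma also had lower means in Snail cKO tumours. Cxcl13, which attracts B cells, had 5.43, 8.01 and 5.24 in Snail cKO tumours and 12.74, 9.90 and 6.75 in KPC tumours (-3.57, SE 1.73; -2.10 without KPC replicate 1). Ccl24, an eosinophil chemokine, was at 5.14, 5.00 and 4.86 in Snail cKO tumours and at 8.42, 7.83 and 4.77 in KPC tumours, with 1 Snail cKO and 2 KPC arrays above background (-2.01, SE 0.87). Cxcl14, a chemokine of fibroblasts and epithelium, had 7.29, 6.79 and 8.05 in Snail cKO tumours, under 8.27, 11.89 and 9.63 in KPC tumours (-2.55, SE 1.15). Only Cxcl14 of these 3 had groups that did not overlap. Over 20 chemokines tested, 13 had a lower and 7 a higher mean, with a median of -0.28, and -0.68 with the array set blocked.

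Antigen presentation genes of MHC class II did not share the lower means of the macrophage list. H2-Aa, an alpha chain of class II, had 8.54, 8.54 and 9.96 in Snail cKO tumours, against 5.55, 5.12 and 7.23 in KPC tumours (3.05, SE 0.61, a ratio of 8.26). It was the only 1 of the 11 class II genes tested whose groups did not overlap, beside 8.69% of all genes. H2-Ab1, the matching beta chain, had 11.08, 10.31 and 12.02 in Snail cKO tumours and 7.79, 10.67 and 9.18 in KPC tumours (1.92, SE 1.08; 1.21 without KPC replicate 1). H2-Eb1, another beta chain, was at 9.93, 10.13 and 10.93 in Snail cKO tumours and at 6.23, 10.27 and 8.80 in KPC tumours (1.90, SE 0.89; 0.80 without it). Cd74, the invariant chain, had 10.34, 10.97 and 11.92 in Snail cKO tumours and 8.72, 11.94 and 9.38 in KPC tumours (1.07, SE 1.13). KPC replicate 2 was the KPC tumour highest for H2-Ab1, H2-Eb1 and Cd74 but the lowest of the 6 for H2-Aa. In Twist cKO tumours a further H2-Ab1 probe read 8.97, 13.47 and 9.24, while H2-Aa had 6.74, 6.97 and 7.67. H2-Aa rests on 1 probe, which thus did not follow H2-Ab1 across the series. Ciita, the class II transactivator, had 5.62, 6.33 and 6.51 in Snail cKO tumours, and was above background in KPC replicate 2 alone (6.07) among KPC tumours. The peptide loading genes H2-DMa and H2-DMb1 differed by 0.10 (SE 0.88) and -0.19 (SE 0.92), and H2-DMa's further probe gave -0.23. Ctss, the protease that trims the invariant chain and is abundant in macrophages, had 7.29, 6.97 and 7.51 in Snail cKO tumours against 9.28, 8.34 and 7.25 in KPC tumours (-1.03, SE 0.46). Over the list 8 had a higher and 3 a lower mean, with a median of 0.78 (-0.17 once the array set was blocked).

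**Figure D4:**
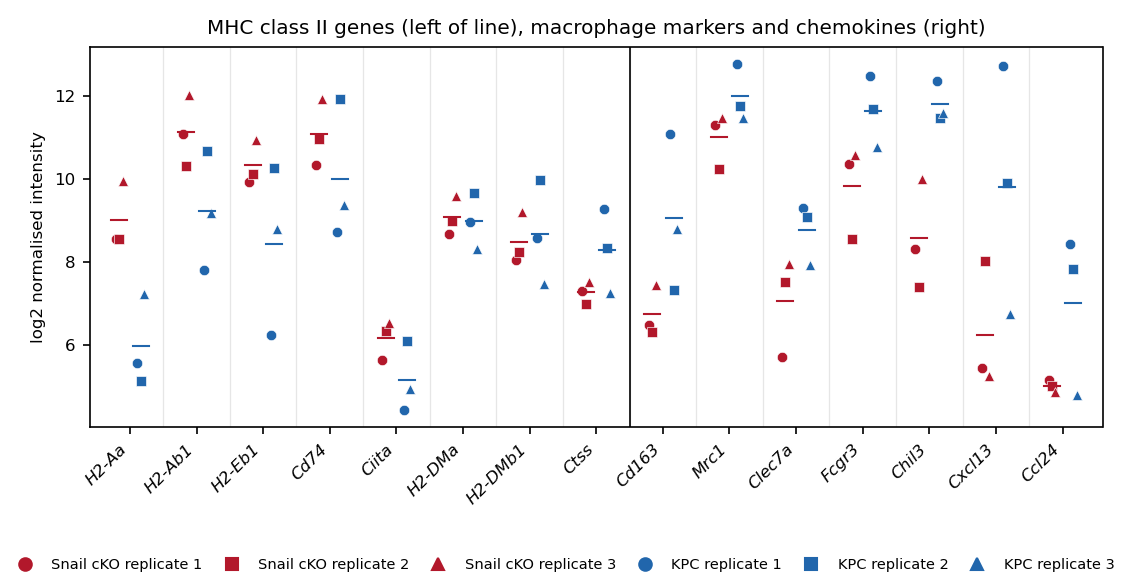
Log2 normalised intensity (y axis) of MHC class II genes, left of the vertical line, and of macrophage markers and chemokines, right of it, 1 point per tumour, Snail cKO in red left of KPC in blue, lines at group means. H2-Aa separates the groups (8.54 to 9.96 in Snail cKO, 5.12 to 7.23 in KPC), whereas KPC replicate 1 (blue circle) is the highest tumour for Cd163, Mrc1, Clec7a, Fcgr3, Chil3, Cxcl13 and Ccl24.

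B cell genes were high in a single tumour. The B and plasma cell list read 2.01 in Snail cKO replicate 2 relative to the mean of the 6 tumours, and -0.98 to 0.23 in the other 5; its median difference was 0.71, and -0.79 with the array set blocked and -0.08 without that tumour. The T and NK cell list read 0.00, 0.21 and -0.16 in Snail cKO tumours and -0.05, -0.27 and -0.36 in KPC tumours, with 6 of its 8 genes higher in the mean (median 0.14; -0.32 with the array set blocked). Cd79b, part of the B cell receptor, had 5.27, 9.25 and 5.22 in Snail cKO tumours and 4.59, 5.43 and 5.70 in KPC tumours. Cd3e, part of the T cell receptor complex, was dim, at 5.09, 6.11 and 5.21 in Snail cKO tumours and below background in all KPC tumours (at least 1.40-fold higher in Snail cKO), but its difference was -0.24 with the array set blocked. Csf3r, the receptor of neutrophil growth factor, had 6.10, 6.07 and 5.39 in Snail cKO tumours, below 6.96, 6.93 and 6.17 in KPC tumours (-0.84, SE 0.34), though its further probe gave 0.08. The 11 neutrophil genes were 5 higher and 6 lower (median -0.15; -0.66 with the array set blocked). Alas2, of haem synthesis in red cell precursors, was at 8.91, 5.31 and 6.57 in Snail cKO tumours and at 6.01, 4.63 and 6.02 in KPC tumours, and Snail cKO replicate 1 was highest over the erythroid list (2.45).

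Exocrine and mucous genes differed widely between tumours of 1 genotype. Of 27 acinar genes 26 had a higher mean in Snail cKO tumours (median 1.53), and the summed intensity of the list was 5917, 3448 and 62180 in Snail cKO replicates 1, 2 and 3 against 1725, 8213 and 1491 in KPC tumours. Without Snail cKO replicate 3 the median was 0.00, and with the array set blocked 3.16. Zg16, a zymogen granule lectin, had 13.93 in that tumour and 4.77 and 4.92 in the other Snail cKO tumours, against 4.47, 5.78 and 4.71 in KPC tumours. Prss3, a trypsinogen, had 6.80, 4.67 and 9.81 in Snail cKO tumours and 4.83, 6.29 and 4.67 in KPC tumours. Cela1, an elastase, had 10.29, 11.28 and 11.78 in Snail cKO tumours, above 9.73, 9.10 and 9.48 in KPC tumours (1.68, SE 0.78; 1.35 without Snail cKO replicate 3). It was the only acinar gene of 27 tested whose groups did not overlap, beside 8.69% of all genes. Reg3b, a lectin of injured acinar cells, spread widely in both groups, at 11.95, 5.47 and 14.84 in Snail cKO tumours and 8.01, 13.22 and 7.45 in KPC tumours. The 8 smooth muscle genes were 5 higher and 3 lower in the mean (median difference 0.46; 1.38 with the array set blocked). Their median level was also highest in Snail cKO replicate 3 (1.71). There Myh11, smooth muscle myosin, had 10.24 beside 5.54 and 6.40 in the other Snail cKO tumours and 4.63, 6.11 and 4.49 in KPC tumours. Actg2, an enteric smooth muscle actin, had 13.39 there, 9.38 and 8.91 in the others, and 7.37, 9.73 and 7.98 in KPC tumours.

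Duct and mucinous genes had higher means in Snail cKO tumours in 9 of 11 (median 0.98) and 21 of 22 (median 1.10). Aqp5, a water channel of ducts and glands, had 10.04, 10.62 and 11.63 in Snail cKO tumours, above 6.90, 7.81 and 9.69 in KPC tumours (2.63, SE 1.16; 2.01 without KPC replicate 1). Muc5ac, a gastric mucin of precursor lesions, had 6.32, 13.04 and 9.45 in Snail cKO tumours and 4.36, 9.45 and 6.38 in KPC tumours (2.88, SE 1.95; 1.16 without Snail cKO replicate 2). Tff3, a trefoil peptide of goblet cells, was at 4.98, 7.83 and 12.07 in Snail cKO tumours and at 4.42, 5.79 and 4.66 in KPC tumours (3.34, SE 1.48; 1.45 without Snail cKO replicate 3). KPC replicate 1 was lowest for all 3 genes. Muc2, an intestinal mucin, reached 12.50 in Snail cKO replicate 3 and lay between 4.60 and 6.03 in the other 5 tumours. Agr2, a chaperone of mucin folding, had 5.01, 5.75 and 6.43 in Snail cKO tumours and 4.62, 5.22 and 5.04 in KPC tumours (0.77, SE 0.38). Without KPC replicate 1 the medians were -0.22 for duct and 0.27 for mucinous genes, and with the array set blocked 1.73 and 2.57.

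Metabolic and drug response genes differed in a few members. Cda, the cytidine deaminase that inactivates gemcitabine, had 9.43, 7.53 and 8.58 in Snail cKO tumours, above 7.02, 5.68 and 6.63 in KPC tumours (2.07, SE 0.87, a ratio of 4.20). Upp1, uridine phosphorylase, had 12.17, 10.99 and 10.86 in Snail cKO tumours, above 10.29, 10.69 and 9.76 in KPC tumours (1.09, SE 0.47), and its further probes gave 1.31 and 1.12. Both kept their sign without any single tumour, though Upp1 was at 0.68 without Snail cKO replicate 1 and 0.61 within array set 1. The 26 nucleoside genes had a median of 0.18 with 19 higher and 7 lower, and -0.08 within array set 1. Of 18 hypoxia and glycolysis genes 15 had a higher mean (median 0.40), and 3 lay above all KPC tumours, against 2.84% of all genes. Egln3, a prolyl hydroxylase raised by low oxygen, had 10.72, 9.68 and 10.10 in Snail cKO tumours against 8.71, 8.47 and 8.92 in KPC tumours (1.47, SE 0.78). Pkm, pyruvate kinase, was at 13.17, 13.03 and 13.12 in Snail cKO tumours and at 11.99, 12.54 and 12.71 in KPC tumours (0.69, SE 0.41). Ndrg1, a hypoxia-responsive gene, and Aldoa, an aldolase, differed by 1.22 (SE 0.55) and 0.57 (SE 0.29), with overlapping groups.

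Growth, signalling and stress genes showed smaller differences. Among 20 proliferation genes 15 had a higher and 5 a lower mean (median 0.22; -0.07 within array set 1): Cdc20, an activator of anaphase, differed by 1.19 (SE 0.56) and Mcm2, of the replicative helicase, by -0.56 (SE 0.32). Of 26 genes of the TGF-beta and BMP pathway, an inducer of Snai1, 9 had a higher and 17 a lower mean (median -0.14; 0.14 with the array set blocked). Ltbp2, a matrix protein related to TGF-beta binding proteins, was below background in all Snail cKO tumours and at 5.58, 5.17 and 5.09 in KPC tumours. Interferon response genes had 14 higher and 2 lower means (median 0.37; 0.23 with the array set blocked), and Usp18, a negative regulator of this response, differed by 0.94 (SE 0.80). Of 14 immediate-early genes, which also respond to handling of tissue, 10 had a lower mean (median -0.24). Dusp1, a phosphatase of MAP kinases, had 11.20, 9.96 and 10.69 in Snail cKO tumours against 12.01, 11.32 and 11.45 in KPC tumours, and Egr2, a zinc finger factor, had 6.93, 7.36 and 6.80 in Snail cKO tumours against 7.54, 9.48 and 8.14 in KPC tumours. The part of handling in these differences was not tested.

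Some genes were above background in all tumours of a single group only. A probe above background on all 3 Snail cKO and no KPC arrays was found for 18 genes (0.156%), and the reverse for 62 (0.537%). Slc14a1, a urea transporter, had 9.92, 5.34 and 5.82 in Snail cKO tumours and was below background in KPC tumours (at least 4.13-fold higher in Snail cKO), with 1.20 as its difference without Snail cKO replicate 1. Bst1, an ADP-ribosyl cyclase of myeloid and stromal cells, was below background in Snail cKO tumours and at 7.07, 6.14 and 6.96 in KPC tumours, at least 3.12-fold lower in Snail cKO. Agpat5, an acyltransferase of phospholipid synthesis, was likewise below background in Snail cKO tumours and at 5.79, 5.62 and 5.86 in KPC tumours (at least 1.59-fold lower).

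**Figure D5:**
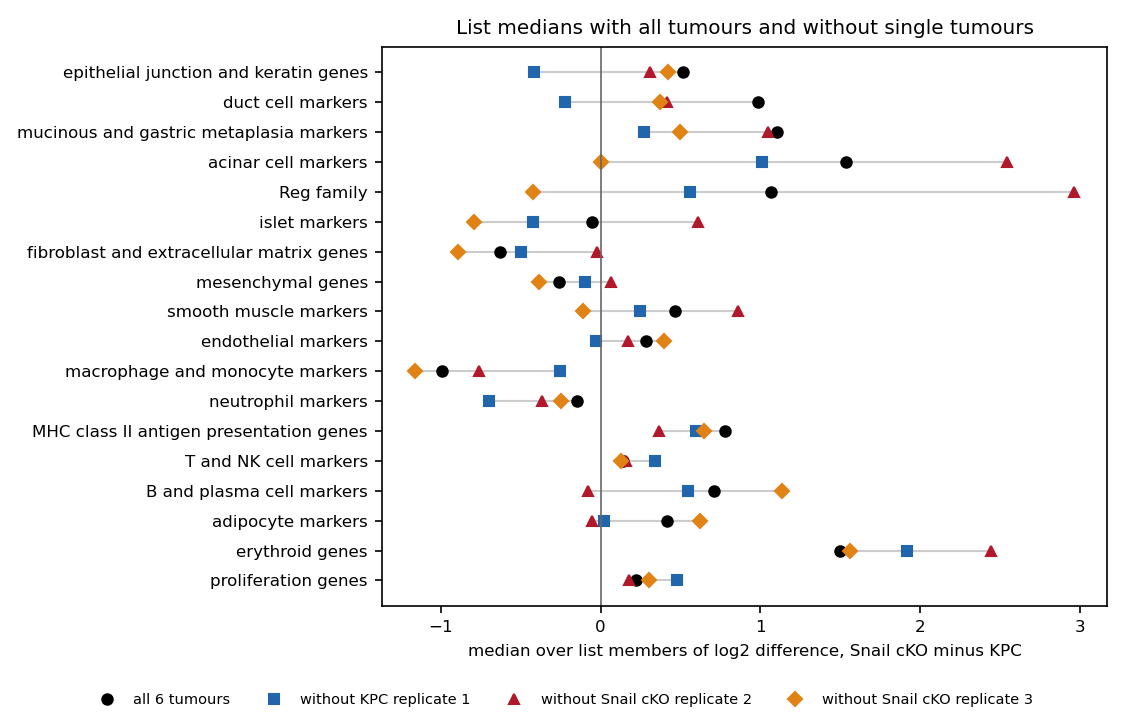
Median over each list's tested genes of the log2 difference, Snail cKO minus KPC (x axis), with all 6 tumours (black) and without KPC replicate 1, Snail cKO replicate 2 or Snail cKO replicate 3 (coloured marks). The epithelial median is 0.52 with all tumours and -0.42 without KPC replicate 1, the fibroblast median -0.63 and -0.02 without Snail cKO replicate 2, and the acinar median 1.53 and 0.00 without Snail cKO replicate 3. Blocking the array set, not drawn, moved the endothelial median from 0.28 to -0.26 and the adipocyte median from 0.42 to -0.64. It moved the islet median from -0.06 to 0.93 and the Reg family median from 1.06 to 3.60.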

How the data were processed

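Per the file headers, the deposited main table holds the mean bead intensity of 45281 probes per Illumina array, beside a p-value of detection; its values are linear and were not normalised between arrays. A deposited second table of processed intensity was a linear function of it and served as an alternative. The submitters' processing notes name GenomeStudio 5.0. The log2 values were computed here from the deposited intensities with limma 3.58.1 (R 4.3.3) and its neqc function (background correction, quantile normalisation, offset 16); intervals and figures used Python 3.11.15. A probe entered when its detection p-value was below 0.05 on 3 or more arrays, and each gene was represented by its brightest probe (11537 of 19057 genes). Gene names came from GEO's platform annotation, in which 34885 had 1 gene symbol, 18 several and 10378 none; those with 1 were used. The lmFit and eBayes functions fitted group means to the 9 arrays together, with two-sided tests, Benjamini-Hochberg adjustment over all genes and a threshold of 0.05. SEs come from this fit and p-values measure the spread between tumours of separate mice; the number of arrays limits the precision. A bound ("at least") sets the brighter group's mean against, per array, the higher of the dim probe and the lowest detected signal. The code was tested on simulated data.

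The members and the 37 gene lists were chosen with earlier results of these data known. A rule picked genes for naming. It took Snai1 and Twist1, and the 15 of smallest p in each direction (1 predicted or clone name skipped). To these it added members of the EMT, Snail target and MHC class II lists, and the 5 of smallest p in each other list. Up to 8 genes in each direction detected in a single group, and the tested gene on each side of Snai1, completed it. The rule gave 236 genes, and values are given for 103, so the examples from a list are a selection. The array set was told from the values, by a median raw signal above or below 110, and no label or header names it. Alternatives are given in the closing section.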

Additional observations from a re-analysis of the deposited data

How the results depend on the processing

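The count of 0 genes past an adjusted p of 0.05 was the same under all 17 alternatives, with smallest adjusted p-values of 0.161 to 1.00 (limma), and 311 genes had an unadjusted p under 0.05. That second count was 680 with no detection filter, 778 with array weights, 215 with the array set as a block, 297 within array set 1 and 204 to 409 without single tumours, lowest without Snail cKO replicate 2 and highest without Snail cKO replicate 3. Genes whose groups did not overlap numbered 2003 with no detection filter; this count was recomputed only where all 6 tumours remained. Of 103 genes named with values, 80 kept their direction under every alternative, all 30 of smallest p among them. Those 30 were chosen by p on these same arrays and their groups do not overlap. Leaving out tumours therefore could not turn their sign, and their kept direction is no measure of stability. Once the array set entered the fit, the differences that turned were 0.17 for Snai1, 0.38 for Snai2, 0.14 for Zeb2, 0.59 for Cldn4, -0.10 for Crb3, 0.50 for Fn1, -0.17 for H2-DMa, -0.78 for Cd79b and -0.24 for Cd3e. Within array set 1 they were 0.31 for Snai2, 0.36 for Zeb2, 0.40 for Cldn4, -0.0483 for Hdac2, 0.52 for H2-DMb1 and -0.0207 for Cd79b. Array weights gave 0.43 for Snai2 and -0.19 for H2-DMa, and the mean of a gene's probes -0.0644 for H2-DMa. Without both KPC replicate 1 and Snail cKO replicate 2, they were 0.37 for Snai1, 0.76 for Twist1, 0.95 for Snai2, 0.33 for Zeb1, 0.58 for Zeb2, -0.53 for Cdh1, -0.57 for Krt18, -0.47 for Ocln, -0.19 for Crb3, -1.15 for Muc1, 0.89 for Fn1, -0.91 for Elf3, -0.12 for Pdx1, -0.0266 for Muc5ac and -0.32 for Cd79b. Leaving out single tumours gave ranges of -0.73 to 0.13 for Snai1, -1.86 to 0.15 for Twist1, -0.63 to 0.38 for Snai2, -0.42 to 0.18 for Zeb1, -0.83 to 0.18 for Zeb2, -0.19 to 1.72 for Cdh1, -0.26 to 2.48 for Krt18, -0.51 to 2.06 for Muc1, -0.12 to 0.56 for Crb3, -0.45 to 2.27 for Elf3, -1.22 to 0.44 for Fn1, -0.59 to 1.85 for Mmp9, -0.23 to 0.44 for H2-DMa, -0.79 to 0.47 for H2-DMb1, -0.85 to 3.84 for Reg3b and -0.14 to 4.44 for Zg16. Of 37 list medians, 13 turned with the array set as a block, 11 within array set 1, 11 without Snail cKO replicate 2, 6 without KPC replicate 1 and 12 without both. The cause of these turns was not tested. Genes that shrank by over 1.5 times or turned without a single tumour numbered 60 of the 103, and 33 with the array set. No paired analysis was possible because the labels give no replicate numbers that groups share, and the numbers used here follow the order of the samples. Signal near background limits dim genes, where differences understate ratios.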
